A study of Sus scrofa with 26 samples.

Results

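The SLC2A genes encode the facilitative hexose transporters (GLUT proteins), and 7 of them are described here in pig subcutaneous adipose tissue (SCAT): SLC2A5, the fructose transporter, with the glucose transporters SLC2A1, SLC2A3, SLC2A4, SLC2A8, SLC2A10 and SLC2A12. Every array probe that the annotation assigns to one of these genes was taken, which gave 16 probes of the 60305 on the array. Of these, 13 were named by gene symbol or accession and 3 by their written description. SLC2A5 was chosen by its lower level in the heat-stressed pigs of these same arrays, so its difference between temperatures is given as a description with no test. The other members were included as relatives of SLC2A5.

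RNA of 26 castrated male pigs was measured on 26 one-colour arrays, with 1 animal per array. The animals were Creole, Large White (LW) or F1 pigs, the F1 being Large White by Créole crosses according to the study's methods. The thermoneutral pigs (TN) stayed at 24 °C, and the heat-stressed pigs (HS) are labelled 30 °C, which the series text gives as 32 °C for 5 days. There were 3 Creole TN, 4 F1 TN, 4 LW TN, 5 Creole HS, 5 F1 HS and 5 LW HS arrays. The TN pigs were slaughtered before the temperature was raised, so temperature and the day and age at slaughter cannot be told apart. The paper reports that feed intake fell under heat, and no TN group was held to that intake. Temperature and intake cannot be told apart either. According to the study's methods the pigs were littermates in blocks and shared pens, which the labels do not give, so p-values measure the spread between these animals as if they were independent. SCAT is a mixed tissue, and fewer cells of a type cannot be told apart from less RNA per cell.

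GLUT proteins let hexoses cross membranes down their concentration gradient, without ATP or sodium. In adipocytes SLC2A4 (GLUT4) is held in intracellular vesicles and moved to the cell surface by insulin, whereas SLC2A1 and SLC2A3 serve basal glucose uptake in many cell types. SLC2A5 (GLUT5) carries fructose with little affinity for glucose and is best known from the small intestine and sperm.

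The array probes are 60-mers, and the sequences that the results turn on are printed here 5′ to 3′ as the scanner files give them. SLC2A5 has 3 probes but only 2 sequences, since the spots O11814 and A_72_P437484 carry the same 60-mer. That 60-mer and the one shared by the SLC2A4 spots A_72_P448551 and O9845 lie on related stretches of the family: in an alignment without gaps 28 of 57 bases were identical (49.1%), and the capitals mark those bases.
SLC2A5 O11814 and A_72_P437484: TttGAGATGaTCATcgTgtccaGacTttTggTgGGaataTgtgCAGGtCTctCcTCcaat
SLC2A4 A_72_P448551 and O9845: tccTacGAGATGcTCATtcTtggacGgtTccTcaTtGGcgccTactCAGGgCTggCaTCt

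The third SLC2A5 probe is shown because it moved the other way from the shared 60-mer. The SLC2A12 probe O2906 is shown because LW and Creole differed on it, and the SLC2A8 probe because its level followed that of SLC2A5 over arrays. No capitals are used in these 3 sequences.
SLC2A5 A_72_P343093: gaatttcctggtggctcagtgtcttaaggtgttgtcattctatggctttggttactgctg
SLC2A12 O2906: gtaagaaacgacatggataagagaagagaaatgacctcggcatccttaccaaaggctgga
SLC2A8 A_72_P203887: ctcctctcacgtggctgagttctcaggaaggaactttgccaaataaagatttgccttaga

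SLC2A4 has 4 sequences on the array. The probes A_72_P440846 and A_72_P413673 are near-copies, with 39 of 46 aligned bases identical (84.8%, capitals), and A_72_P413673 was well above background on 0 of 26 arrays. The probe A_72_P101881 shared 39 of 57 aligned bases (68.4%) with a SLC2A2 probe that was also well above background on 0 of 26 arrays.
SLC2A4 A_72_P413673: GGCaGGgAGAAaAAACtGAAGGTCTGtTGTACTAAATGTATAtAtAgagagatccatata
SLC2A4 A_72_P440846: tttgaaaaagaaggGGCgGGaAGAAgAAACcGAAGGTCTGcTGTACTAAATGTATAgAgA

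For SLC2A1, the reverse complement of probe O10154 aligned with the SLC2A11 probe A_72_P742356 over 55 bases, 34 of them identical (61.8%, capitals). The forward sequence of O10154 gave a lower match, 24 of 49 bases. This probe was well above background on 13 of 26 arrays.
SLC2A1 O10154, reverse complement: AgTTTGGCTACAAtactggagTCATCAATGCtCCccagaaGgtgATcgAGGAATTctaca
SLC2A11 A_72_P742356: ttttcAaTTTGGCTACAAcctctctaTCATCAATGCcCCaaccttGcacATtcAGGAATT

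Levels are log2 quantile-normalized median intensities, and a level of one probe cannot be set against that of another. A probe was tested if it was well above background on at least 8 arrays, which kept 14 of the 16 member probes, at least 1 for each of the 7 genes. The probes left out were SLC2A4 A_72_P413673 and SLC2A8 A_72_P203912, both above background on no array. Over the whole array 44703 probes were tested, each array had 41313 to 46184 probes well above background, no spot was saturated, and arrays of a group correlated at r = 0.974 to 0.993. All 8 adipocyte markers were above background on all 26 arrays, with ADIPOQ at a mean log2 level of 17.42 and FABP4 at 18.36. Precision is limited by how many arrays each group holds.

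SLC2A5 was lower under heat stress in each breed on the shared 60-mer. At TN its log2 level (spot O11814) was 8.24, 8.88 and 9.73 in Creole pigs, 7.57, 8.42, 9.55 and 9.99 in F1 pigs, and 7.17, 7.38, 7.98 and 8.10 in LW pigs. Under HS it was 6.30, 8.0, 8.01, 8.56 and 9.05 in Creole, 6.35, 6.76, 7.41, 8.49 and 9.0 in F1, and 5.67, 5.77, 5.87, 6.72 and 6.79 in LW. The LW HS arrays all lay below the LW TN arrays, whereas HS and TN overlapped in Creole and F1 pigs.

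Adjusted for breed, the HS minus TN difference of SLC2A5 was -1.27 (SE 0.32, 95% interval -1.92 to -0.61), a 2.4-fold lower level, and 13 of 15 HS arrays lay below the TN mean of their own breed. The second spot of the same 60-mer gave -1.16 (SE 0.29). Of all tested probes 0.0604% had a larger absolute difference than O11814. This difference chose the gene, so its interval, its rank and the count of arrays are a description and not a test. Within breeds the difference was -0.97 (SE 0.60) in Creole, -1.28 (SE 0.56) in F1 and -1.50 (SE 0.56) in LW pigs.

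The 2 spots of the shared 60-mer followed each other over arrays. Over the 26 arrays their levels correlated at r = 0.992, and at 0.982 after subtraction of group means, with an SD of their difference of 0.18. Among the 1461 pairs of tested probes with one sequence, the HS minus TN values of a pair differed by a median of 0.025, against a gap of 0.11 at the 95th percentile, which is about the gap between these 2 spots. Both spots read the same RNA sample and count as 1 measurement of SLC2A5.

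**Figure D1:**
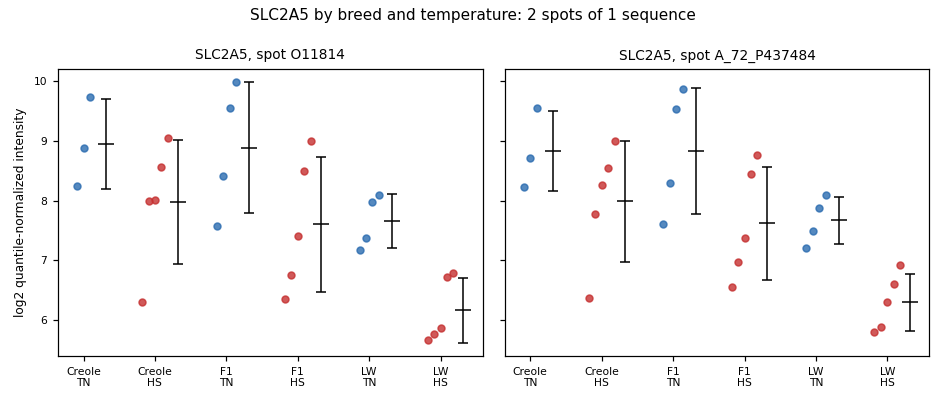
Log2 quantile-normalized intensity of SLC2A5 (y axis) in the 6 breed by temperature groups (x axis), for the 2 spots of the same 60-mer; each point is 1 pig, blue for TN and red for HS, and the black marks are the group mean and SD. On O11814 the LW HS arrays lie between 5.67 and 6.79, below all LW TN arrays, and both spots show the same order.

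The third SLC2A5 probe, A_72_P343093, matched in the annotation to the rabbit transporter, did not follow them. Its log2 level was 9.02 to 9.24 in Creole TN, 8.75 to 9.31 in F1 TN and 9.26 to 9.58 in LW TN, and 8.95 to 9.75, 9.05 to 9.47 and 9.34 to 9.65 in the same breeds under HS. HS and TN overlapped in each breed, and HS minus TN was 0.18 (SE 0.08), the opposite direction. In alignments without gaps, no other distinct 60-mer on the array matched it, or the shared 60-mer, at 75% identity over 30 or more bases. This compares probes only, and which transcripts A_72_P343093 reads was not tested. Being the brightest of the 3, it stands for the gene wherever genes are represented by their brightest probe, so counts of genes are given below also with the shared 60-mer in its place.

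The slide on which an array lay went with the size of the SLC2A5 difference. On slides 1, 2 and 3 the mean of the HS arrays minus that of the TN arrays was -2.51, -2.53 and -2.06, whereas on slides 4 and 5 it was 0.24 and -0.03. Slide 4 held all 6 groups, and there 3 of 4 HS arrays, at 8.49, 8.56 and 9.05, lay above the 3 TN arrays, at 7.57, 8.10 and 8.24, and the LW HS array at 6.72 lay below them. With slide as a fixed block the difference was -1.21, and with slide as a random block -1.26. The slides held different mixtures of breeds, and whether the temperature difference differs between slides was not tested.

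**Figure D2:**
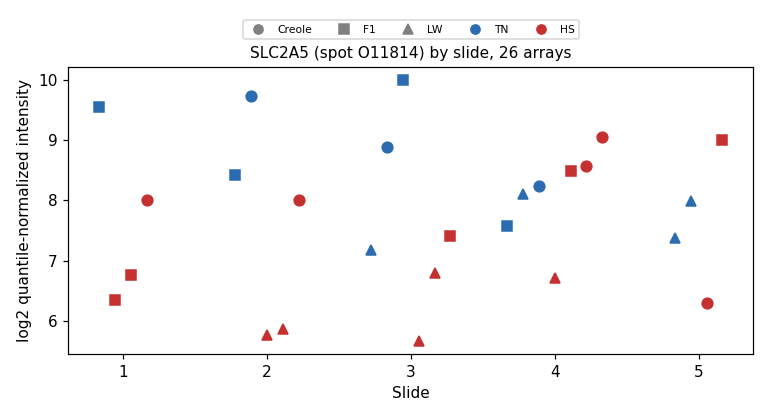
Log2 quantile-normalized intensity of SLC2A5 spot O11814 (y axis) on the 5 slides (x axis); each point is 1 array, coloured by temperature and shaped by breed. HS arrays lie mostly below TN arrays on slides 1 to 3. On slide 4, 3 HS arrays lie above all TN arrays and 1 below them, and on slide 5, 1 HS array lies above both TN arrays and 1 below.

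Some red blood cell markers moved in the same direction as SLC2A5. Of 5 such genes tested, 3 had values below 0 in HS minus TN and 2 above. Of the 5, 2 were called, where 12.2% of all tested probes were. HBB (a haemoglobin chain) fell by 0.85 and EPB42 (a red cell membrane protein) by 0.38, with limma adjusted p = 0.011 and 0.0294. AHSP, which binds free alpha globin, read -0.47 (adjusted p = 0.0521), and ALAS2, an enzyme of haem synthesis, and SLC4A1, the red cell anion exchanger, read 0.04 and 0.06. The mean marker level, centred over arrays, ranged from -0.03 to 0.57 at TN and from -0.49 to 0.37 under HS. With that mean as a covariate the SLC2A5 difference was -0.60, and with the mean skeletal muscle marker level as a covariate it was -1.42. Of 12 muscle markers 0 had values below 0 in HS minus TN (median 0.56), and 0 passed the test. The part of blood in the result was not tested beyond these values. The breed by temperature interaction of SLC2A5 did not pass (limma adjusted p = 0.971).

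Breeds differed in SLC2A5 as well. LW pigs had lower levels than Creole pigs, by -1.61 on O11814 (SE 0.39, 95% interval -2.41 to -0.80, limma adjusted p = 0.00797) and -1.47 on A_72_P437484 (adjusted p = 0.00794), whereas A_72_P343093 read 0.24 (adjusted p = 0.0881, and 0.0445 with arrays weighted by quality). This is a 3.05-fold lower level on O11814, with 9 of 9 LW arrays below the Creole mean at their own temperature. At TN all 4 LW arrays lay below all 3 Creole arrays, and under HS 3 of 5 LW arrays lay below all 5 Creole arrays, with overlap through the single Creole HS array at 6.30. Within temperatures the difference was -1.82 under HS (adjusted p = 0.0419) and -1.29 at TN (adjusted p = 0.336). Within slides LW minus Creole was -3.04, -2.34 and -1.21 on slides 2, 3 and 4 and 1.38 on slide 5, where 2 LW TN arrays met that same Creole HS array. With slide as a fixed block it was -1.63 (adjusted p = 0.0167).

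F1 pigs had a higher SLC2A5 level than LW pigs on the shared 60-mer. F1 minus LW was 1.35 (SE 0.38, adjusted p = 0.0431) and F1 minus Creole was -0.26 (95% interval -1.06 to 0.54, adjusted p = 0.892). Against the mean of both parents the F1 value was 0.54 (95% interval -0.14 to 1.22, adjusted p = 0.665), which did not pass. The order of the group means was Creole TN (8.95), F1 TN (8.88), Creole HS (7.98), LW TN (7.66), F1 HS (7.60) and LW HS (6.16). With a residual SD of 0.83, neighbours in this order differed by less than that spread except F1 TN and Creole HS, 0.90 apart, and F1 HS and LW HS, 1.44 apart.

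SLC2A4, the insulin-responsive transporter, was lower in LW than in Creole pigs on all 4 of its tested spots. On the brightest, A_72_P440846, the log2 level was 14.50, 14.79 and 15.07 in Creole TN and 13.81, 13.91, 14.19, 14.65 and 14.91 in Creole HS. In LW pigs it was 13.70, 14.16, 14.25 and 14.26 at TN and 13.31, 13.47, 13.59, 13.72 and 14.25 under HS. All LW TN arrays lay below all Creole TN arrays, and 4 of 5 LW HS arrays lay below all Creole HS arrays.

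LW minus Creole on that probe was -0.64 (SE 0.19, 95% interval -1.03 to -0.25, limma adjusted p = 0.0235), a 1.56-fold lower level in LW. The other spots gave -0.56 (A_72_P101881, adjusted p = 0.0461), -0.66 (A_72_P448551, adjusted p = 0.00801) and -0.65 (O9845, adjusted p = 0.0127). All 9 LW arrays lay below the Creole mean at their temperature on each of the 4 spots. On A_72_P448551 the LW HS arrays, 6.98 to 7.29, lay below every Creole HS array, 7.40 to 8.34, but on O9845, the other spot of that 60-mer, 6.95 to 7.44 overlapped 7.32 to 8.55. Within slides LW minus Creole of A_72_P440846 was -0.71, -1.30 and -0.50 on slides 2, 3 and 4 and 0.17 on slide 5, where 1 Creole array was set against 2 LW arrays. On slide 5 the other spots read 0.53 (A_72_P101881), -0.07 (A_72_P448551) and 0.10 (O9845), and they were below 0 on slides 2, 3 and 4. Leaving out Creole TN replicate 2 or Creole HS replicate 3 ended the call on A_72_P440846, with an adjusted p of up to 0.0554 and the difference between -0.72 and -0.57 whichever array was left out. The call on A_72_P101881 was lost on leaving out any of 14 of the 26 arrays, with adjusted p up to 0.107, and with slide as a fixed block (-0.56, adjusted p = 0.0762).

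Skeletal muscle, which also expresses SLC2A4, left transcripts in these samples. All 12 muscle markers tested were lower in LW than in Creole pigs (median log2 difference -0.92) with 0 of 12 passing the test, and their mean level ranged from -1.32 to 2.77 over Creole and from -2.25 to 1.77 over LW arrays. With that mean as a covariate the 4 spots of SLC2A4 gave -0.62, -0.50, -0.60 and -0.59, in the order above, with adjusted p of 0.0551, 0.121, 0.0277 and 0.0395. LW minus Creole of SLC2A5 was -1.33 in that fit (adjusted p = 0.0302). Of 8 adipocyte markers 7 had values below 0 in LW minus Creole (median -0.12) and 2 passed the test, where 14.3% of all tested probes did. The mean adipocyte marker level, centred over arrays, ranged from 0.03 to 0.39 in Creole and from -0.32 to 0 in LW pigs, with no overlap. The part of adipocytes in the breed differences of SLC2A4 and SLC2A5 was not tested.

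Between temperatures SLC2A4 did not pass the test. HS minus TN was -0.29 on A_72_P440846 (95% interval -0.61 to 0.02, adjusted p = 0.222) and -0.38, -0.22 and -0.20 on A_72_P101881, A_72_P448551 and O9845 (adjusted p = 0.104, 0.285 and 0.388). Within breeds the brightest probe gave -0.49 in Creole, 0.00 in F1 and -0.42 in LW pigs, with intervals from -1.08 to 0.54. Within slides it ran from -1.07 to 0.43, below 0 on 3 of 5 slides. Weighting arrays by quality brought A_72_P101881 past the threshold, at -0.41 with adjusted p = 0.0461, as did leaving out F1 TN replicate 2 or Creole HS replicate 3 (adjusted p as low as 0.0454). With the red blood cell marker level as a covariate the 4 spots read -0.03, -0.13, -0.01 and 0.08.

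**Figure D3:**
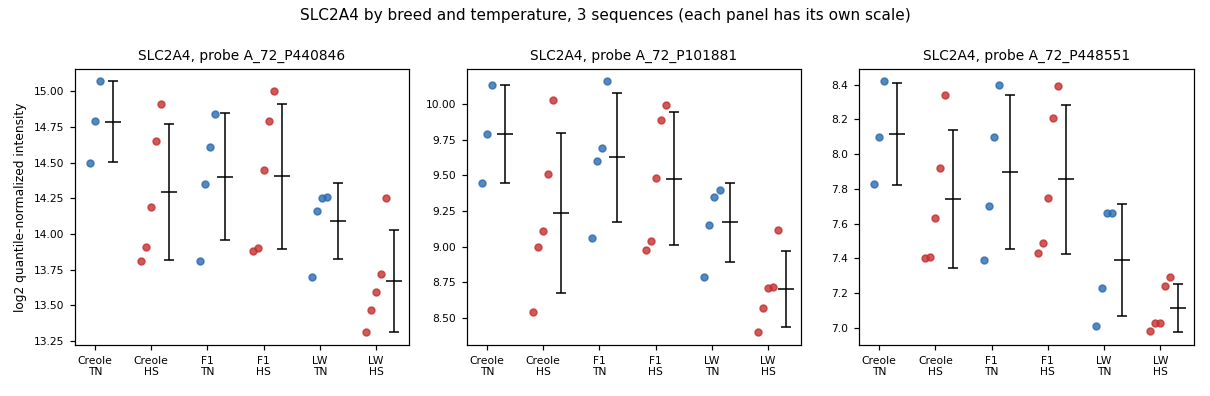
Log2 quantile-normalized intensity (y axis, own scale in each panel) of the 3 tested SLC2A4 sequences in the 6 groups (x axis); each point is 1 pig, blue for TN and red for HS, with the group mean and SD in black. In each panel the LW HS group has the lowest mean and the Creole TN group lies above all LW TN arrays.

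F1 pigs had more SLC2A4 signal than LW pigs on 3 spots, by 0.63 (A_72_P101881, adjusted p = 0.0470), 0.64 (A_72_P448551, adjusted p = 0.0255) and 0.62 (O9845, adjusted p = 0.0341). On A_72_P440846 the difference was 0.55 (adjusted p = 0.0833). F1 minus Creole lay between -0.10 and 0.07 on the 4 spots, with adjusted p from 0.922 to 0.982. F1 minus the mid-parent was 0.23 to 0.35 and did not pass.

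SLC2A8 (GLUT8), an intracellular transporter, varied little between groups. Its probe gave 10.96 to 11.05 in Creole TN, 10.89 to 11.01 in F1 TN and 10.52 to 11.01 in LW TN, against 10.57 to 11.11, 10.54 to 11.13 and 10.52 to 10.69 in the HS groups. HS minus TN was -0.14 (95% interval -0.28 to 0.00, adjusted p = 0.175) and LW minus Creole -0.22 (95% interval -0.39 to -0.04, adjusted p = 0.0832), neither passing. All 9 LW arrays lay below the Creole mean at their temperature. Without LW TN replicate 2, or without Creole HS replicate 5, LW minus Creole passed the test, with an adjusted p as low as 0.0387.

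SLC2A12 (GLUT12), a second transporter held inside the cell and reported to respond to insulin, was lower in LW than in Creole pigs on 1 of its 2 probes. On O2906 the Creole arrays read 6.72, 6.74 and 6.97 at TN and 6.73, 6.73, 6.73, 6.80 and 6.94 under HS. The LW arrays read 6.47, 6.56, 6.62 and 6.80 at TN and 6.39, 6.45, 6.53, 6.6 and 6.6 under HS. Creole and LW did not overlap under HS and overlapped at TN through 1 LW array. The difference was -0.24 (SE 0.06, limma adjusted p = 0.0101), a 1.18-fold lower level in LW. The brighter probe A_72_P028886 gave -0.23 with a wider spread (SE 0.10, adjusted p = 0.137). Between temperatures the 2 probes gave -0.06 and -0.11 (adjusted p = 0.437 and 0.414).

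SLC2A1 (GLUT1), the basal transporter, did not pass the test in any contrast on its brighter probe. On A_72_P165936 HS minus TN was -0.23 (95% interval -0.49 to 0.03, adjusted p = 0.242), with arrays from 8.09 to 9.19 at TN and from 7.99 to 8.91 under HS. LW minus Creole was 0.09 (95% interval -0.23 to 0.40). The dim probe O10154 had the opposite sign between temperatures, 0.28. Its better match, printed above, was by its reverse complement, and whether O10154 reads SLC2A1 RNA was not tested. It was well above background on 4 of 11 TN arrays, none of them Creole, and on 9 of 15 HS arrays, so no p is read from it. The difference was 0.91 with the scanner's processed signal scaled to its 75th percentile, and within LW pigs it fell from 0.34 to 0.08 without LW HS replicate 3.

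SLC2A3 (GLUT3) is a high-affinity glucose transporter prominent in neurons and leukocytes. In Creole pigs its log2 level was 7.83, 7.85 and 7.91 at TN and 6.68, 6.99, 7.28, 7.43 and 7.83 under HS. In LW pigs it was 6.33, 7.21, 7.30 and 7.36 at TN and 7.04, 7.25, 7.28, 7.83 and 8.17 under HS. HS minus TN was -0.62 in Creole (adjusted p = 0.363), 0.00 in F1 and 0.47 in LW pigs (adjusted p = 0.32), and -0.02 over all breeds (95% interval -0.35 to 0.31). The LW value rested in part on LW TN replicate 4, the array at 6.33, without which it was 0.22. The interaction of breed and temperature had an unadjusted p of 0.0161 and an adjusted p of 0.897 by limma and did not pass.

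SLC2A10 (GLUT10), known for its role in arterial walls, was even across groups. Group means lay between 8.72 and 8.89, with a residual SD of 0.21. HS minus TN was -0.03 (95% interval -0.20 to 0.14) and LW minus Creole 0.03 (95% interval -0.18 to 0.23).

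**Figure D4:**
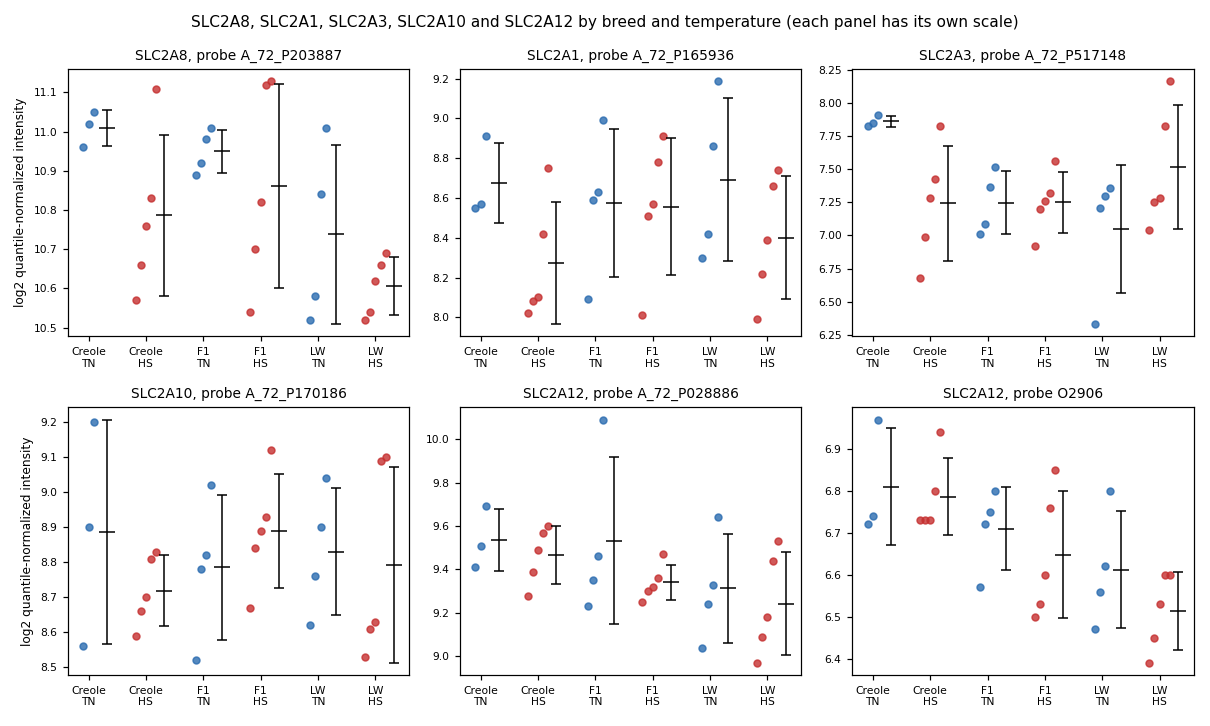
Log2 quantile-normalized intensity (y axis, own scale in each panel) of SLC2A8, SLC2A1, SLC2A3, SLC2A10 and both SLC2A12 probes in the 6 groups (x axis); each point is 1 pig, blue for TN and red for HS, with the group mean and SD in black. On SLC2A12 O2906 the LW HS arrays, 6.39 to 6.6, lie below all Creole HS arrays, and SLC2A10 group means stay between 8.72 and 8.89.

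Counted as genes by their brightest probe, 0 of 7 members passed limma's test at an adjusted p of 0.05 between temperatures, where 12.2% of all tested probes did and 7.02% were called lower. With the shared 60-mer standing for SLC2A5 the count was 1 of 7, which the choice of that gene fixed, and 2 of the 7 brightest probes, SLC2A5 among them, had an unadjusted p under 0.05. The median difference of the 7 genes was -0.11, or -0.14 with the shared 60-mer, against 0.00 over all tested probes. Between LW and Creole pigs 1 of 7 passed (SLC2A4) and 2 of 7 with the shared 60-mer, all lower in LW, where 14.3% of tested probes were called and 7.43% were called lower. By probe, 7 of 14 were called there, but these are 5 sequences of 3 genes.

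No member passed in F1 minus mid-parent (0.00671% of probes called) or in the breed by temperature interaction (0.00224%), each with 1 of the 7 brightest probes at an unadjusted p under 0.05. Within breeds HS minus TN called no member probe by limma (1, 3 and 2 of 14 at an unadjusted p under 0.05 in Creole, F1 and LW pigs, those of F1 and LW all SLC2A5 probes, whose temperature values chose the gene and so test nothing), where 0.0537% of probes were called in Creole, 0.421% in F1 and 1.52% in LW pigs. LW minus Creole called 0 of 14 member probes at TN (0.313% of all probes, with 4 at an unadjusted p under 0.05) and 2 under HS (5.65%, and 3.28% called lower), both spots of the SLC2A5 60-mer. In F1 minus LW 6 of 14 were called (4.23% of all probes, 2.46% higher and 1.77% lower): the 2 spots of the SLC2A5 60-mer and 3 SLC2A4 spots higher in F1, and SLC2A5 A_72_P343093 lower (-0.32, adjusted p = 0.0479). F1 minus Creole called none (0.262%), with 0 at an unadjusted p under 0.05.

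**Figure D5:**
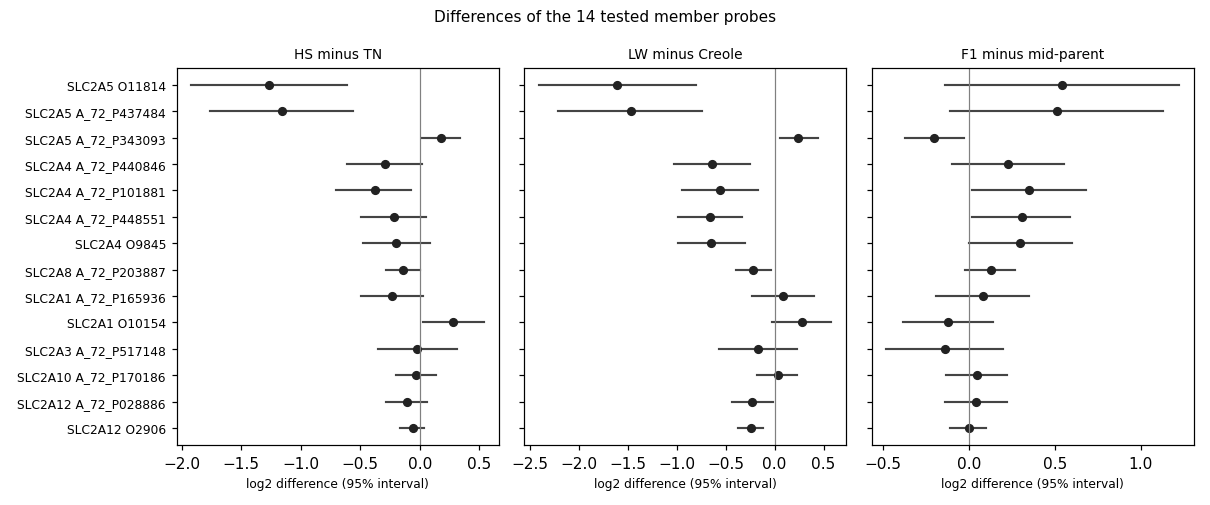
Log2 differences (x axis) of the 14 tested member probes (y axis) for HS minus TN, LW minus Creole and F1 minus the mid-parent; points are limma estimates over 26 arrays and lines their 95% intervals. For SLC2A5 the HS minus TN intervals are no test, because that difference chose the gene. SLC2A5 O11814 reads -1.27 and -1.61 in the first 2 panels, while A_72_P343093 reads 0.18 and 0.24, and the 4 SLC2A4 spots lie between -0.66 and -0.56 for LW minus Creole.

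Over pigs of the same group, SLC2A4 and SLC2A8 followed SLC2A5. After subtraction of group means, SLC2A5 (O11814) correlated with SLC2A4 (A_72_P440846) over 26 arrays at Pearson's r = 0.558 and Spearman's rho = 0.555 (permutation p = 0.00312 and 0.00363, adjusted over 7 relations 0.0109 and 0.0254). For SLC2A8 r was 0.566 and rho 0.462 (permutation p = 0.00274 and 0.019, adjusted 0.0109 and 0.0665). These p-values set r against 0, and the share of other genes on the array with such an r is not given here. Without the 2 arrays farthest from the median of SLC2A5, r was 0.44 for SLC2A4 and 0.444 for SLC2A8. Within the 5 slides r ran from 0.236 to 0.801 for SLC2A4 and from 0.129 to 0.803 for SLC2A8. Correlations with SLC2A1, SLC2A3, SLC2A10 and SLC2A12 lay between -0.0217 and 0.159 (adjusted permutation p from 0.774 to 0.937). The third SLC2A5 probe had r = -0.412 with the shared 60-mer (adjusted permutation p = 0.0845).

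Among 10320 other genes, those whose levels over the 26 arrays were most like SLC2A5 included VDAC1, the mitochondrial outer membrane channel (r = 0.929), PTRHD1 (0.919), PGAM1, a glycolytic enzyme (0.912), and HBZ, an embryonic globin (0.911). After subtraction of group means these values were 0.85, 0.844, 0.804 and 0.897. They share arrays and normalization, and are a description.

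The other SLC2A genes on the array, SLC2A2, SLC2A6, SLC2A9, SLC2A11 and SLC2A13, had 9 probes, of which 7 were tested. Between temperatures 0 of these 5 genes passed limma's test, with 1 at an unadjusted p under 0.05, and their differences ran from -0.06 (SLC2A13) to 0.19 (SLC2A11, adjusted p = 0.067). SLC2A11 rose with slide as a fixed block (0.22, adjusted p = 0.0162), with arrays weighted by quality (adjusted p = 0.0493) and with the muscle covariate (adjusted p = 0.016), and so it did when any of 3 arrays was left out. Between breeds 1 of 5 passed, where 14.3% of all tested probes did: SLC2A11 was higher in LW by 0.36 (adjusted p = 0.00645) on A_72_P444315. Its other probe read -0.01, and 8 other distinct 60-mers on the array aligned to A_72_P444315 at 75% identity or more, and which of them the signal comes from was not tested. SLC2A2, the liver transporter, read 0.11 (HS minus TN, adjusted p = 0.388) and SLC2A6 and SLC2A9 read 0.06 and 0.01.

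Enzymes that handle fructose and polyols were compared alongside the transporters. Counts in this list and the following ones stand beside 12.2% of all tested probes called in HS minus TN and 14.3% in LW minus Creole. Of 6 tested, 2 fell in HS, SORD (sorbitol dehydrogenase, which makes fructose from sorbitol) by 0.33 (adjusted p = 0.00481) and GLYCTK (glycerate kinase) by 0.21 (adjusted p = 0.0113). ALDOC, an aldolase, rose by 0.19 (adjusted p = 0.0484). KHK, the ketohexokinase that phosphorylates fructose, read -0.05 in HS minus TN and -0.03 in LW minus Creole (adjusted p = 0.661 and 0.826). Between breeds GLYCTK and ALDOC were lower in LW by -0.34 and -0.23 (adjusted p = 0.00137 and 0.0489), 2 of 6. Leaving out any of 18 of the 26 arrays ended either ALDOC call, as did slide as a fixed block (adjusted p = 0.0658 in HS and 0.0808 between breeds).

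Of 11 genes of hexose phosphorylation, 1 was called in HS, where 12.2% of all tested probes were. This was PFKFB1, a regulator of fructose 2,6-bisphosphate, lower by 0.42 (adjusted p = 0.0201). HK2, the insulin-responsive hexokinase, read -0.56 (SE 0.33, adjusted p = 0.276) and -0.69 between breeds (adjusted p = 0.261). In LW pigs GPI and ADPGK were lower by -0.24 and -0.15 (adjusted p = 0.0169 and 0.0474), 2 of 11, where 14.3% of all tested probes were called. The ADPGK call was lost on leaving out any of 18 arrays.

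Among 16 genes of GLUT4 vesicle traffic 2 were called in HS, which is near the 12.2% of all tested probes. TBC1D4, the Akt substrate that restrains GLUT4 vesicles, rose in HS by 0.26 (adjusted p = 0.036), and RAB10, a small GTPase of those vesicles, fell by 0.20 (adjusted p = 0.0389). The TBC1D4 call was lost on leaving out any of 11 of the 26 arrays, and the RAB10 call without any of 14 or with slide as a fixed block (adjusted p = 0.0502). SORT1, a sortilin of the same vesicles, read 0.08 (adjusted p = 0.708). RHOQ (TC10) was the 1 gene of 16 called between breeds, where 14.3% of all tested probes were, and was lower in LW by -0.80 (adjusted p = 0.00271).

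Of 13 regulators of the transporters, 0 passed in HS minus TN by limma, with 1 at an unadjusted p under 0.05. TXNIP, which lowers glucose uptake, read 0.13 (adjusted p = 0.706) and MLXIPL, the glucose-sensing factor ChREBP, read -0.19 (adjusted p = 0.371). In LW pigs MLXIPL was lower by -0.49 (adjusted p = 0.0354), which no longer passed when any of 6 arrays was left out, and MEF2A, a factor that binds the SLC2A4 promoter, was higher by 0.19 (adjusted p = 0.0332), which depended in the same way on 11 arrays. Of 6 other sugar carriers, SLC37A4, the glucose 6-phosphate translocase, rose in HS by 0.20 (adjusted p = 0.00236) and was higher in LW by 0.15 (adjusted p = 0.0447), and SLC5A1, the sodium-glucose cotransporter, was higher in LW by 0.39 (adjusted p = 0.0178), but by 0.05 as the mean of its probes (adjusted p = 0.578). The 1 other tested probe of SLC37A4 had the opposite sign between temperatures, 2 of 4 other SLC5A1 probes had the opposite sign between breeds, and the SLC37A4 breed call was lost without any of 14 arrays or with slide as a fixed block (0.12, adjusted p = 0.0926). With the red blood cell marker level as a covariate none of these HS calls passed, at 0.16 for SLC37A4, -0.35 for SORD (adjusted p = 0.0597), -0.12 for GLYCTK, 0.26 for ALDOC, -0.28 for PFKFB1, 0.17 for TBC1D4 and -0.12 for RAB10, with SORD and ALDOC at least as large as without it. With the muscle marker level as a covariate the LW minus Creole calls of GPI (-0.20, adjusted p = 0.0607), ADPGK (-0.14), ALDOC (-0.25), MLXIPL (-0.49), MEF2A (0.19), SLC37A4 (0.10) and SLC5A1 (0.35, adjusted p = 0.0559) did not pass, whereas those of GLYCTK (-0.33), RHOQ (-0.66) and SLC2A11 (0.29) did.

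Markers of the cells in SCAT gave further calls. Of 8 adipocyte markers ADIPOQ (adiponectin) rose by 0.16 and CIDEA (a lipid droplet protein) fell by 0.43 in HS, and LEP (leptin) and CIDEA were lower in LW by -1.23 and -0.31. Among the nerve and Schwann cell markers MAL, a myelin protein, rose in HS by 0.39 and NCAM1 was higher in LW by 0.35. Of 6 endothelial markers CDH5 (a junction cadherin) fell by 0.23 in HS and KDR (a VEGF receptor) was higher in LW by 0.87, a sign that 0 of its 2 other probes shared. None of 8 macrophage, 4 neutrophil and 3 keratinocyte markers passed limma's test in either comparison, with 1, 1 and 0 at an unadjusted p under 0.05 in HS and 1, 0 and 0 between breeds. The part of these cells in the results above was not tested.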

How the data were processed

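Total RNA of SCAT was labelled with Cy3 and hybridized to a porcine 8 by 60K array. The deposited scanner files of Agilent Feature Extraction 10.10.1.1 hold spot intensity values and flags per array, and the value table deposited by the authors holds quantile-normalized log2 values of 44104 of the 60305 probes. That table was used as an alternative: all 26 arrays correlated best with their own column (r = 1), each column had a median of 8.17, and the values were neither centred nor turned.

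Median intensities without local background subtraction were quantile-normalized and log2-transformed, non-uniform spots (at most 16 an array, none of an SLC2A probe) set to missing, and probes fitted with limma 3.58.1 in R 4.3.3 (lmFit, eBayes with an intensity trend, Benjamini-Hochberg over 44703 probes). Breed and temperature were fixed terms. Pen, slaughter day, father and mother, which the study modelled, are not in the labels. The interaction and within-group contrasts used 6 group means. Genes were named from symbols, accessions and descriptions in the files and RefSeq. The probes carry no genome position in these files, and none is given. The fit was tested on simulated data.

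Members and lists were chosen with earlier results of these data known. The text names every member probe, all other SLC2A genes, TXNIP, HK2, KHK, MLXIPL, TBC1D4 and SORT1, and up to 3 called genes per list and contrast with the smallest p, a gene being represented by its brightest tested probe. Called markers, HBB, EPB42 and FABP4 are named besides. A few results that these rules cover are not reported here. Replicate numbers are in accession order. Comparing breeds within a temperature, F1 with each parent, the shared 60-mer for SLC2A5 and marker covariates were chosen after the data were seen.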

Additional observations from a re-analysis of the deposited data

Results flagged for a closer look

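In 3 of 70 probe and group combinations of 4 or 5 arrays, 1 array stood apart from the others of its group by Dixon's criterion, which chance alone meets in about 1 group in 20. SLC2A3 (A_72_P517148) read 6.33 in LW TN replicate 4, with the other arrays between 7.21 and 7.36. SLC2A1 (O10154) read 7.09 in LW HS replicate 3, against 5.68 to 5.92. SLC2A4 (A_72_P440846) read 13.7 in LW TN replicate 3, against 14.16 to 14.26.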

How the results depend on the processing

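No paired analysis was made, because each pig was sampled either at TN or under HS and the labels do not give the litters. Of 483 values of the members under other settings, 459 counted as unchanged, as did 1048 of 1092 with 1 array left out. Unchanged meant the same direction and side of the threshold. For the SLC2A5 temperature values it meant the same direction and a shift below the residual SD, whatever the side of the threshold. Between temperatures 1 of 7 members was called with the shared 60-mer for SLC2A5, with slide as a fixed block and with the mean of a gene's probes, and 0 with any array left out. That member was SLC2A5 each time, lower with the shared 60-mer and the mean of probes and higher (0.21) with slide as a block, and its choice by temperature makes these no test. For LW minus Creole the count was 2 with the shared 60-mer (SLC2A5 lower) or array weights (SLC2A5 higher by its brightest probe), 3 with the mean of probes (SLC2A5 and SLC2A12 lower) and 0 with the muscle covariate. It ran from 0 to 3 with 1 array left out, reaching 0 when Creole TN replicate 2 or Creole HS replicate 3 was dropped, 2 for LW TN replicate 2 (SLC2A8 lower) and 3 for Creole HS replicate 5 (SLC2A8 lower, SLC2A5 higher). Some values changed sign. With the mean of probes SLC2A5 read -0.75 (HS minus TN), -0.95 (LW minus Creole) and 0.28 (F1 minus mid-parent), because its 2 spots of the shared 60-mer outweigh the brightest probe. SLC2A1, whose mean takes in the dim probe O10154, then read 0.03 in HS and -0.02 in F1, SORT1 -0.01 and SLC37A4 0 in HS. At the 75th percentile SLC2A3 read 0.03 in HS, TBC1D4 0.01 in LW and SLC2A12 (O2906) 0.02 in F1. The O2906 value in F1 was also 0 with normexp, 0.04 and 0 with slide as a fixed and a random block, and 0.01 with array weights. SLC2A10 in LW read -0.01 with slide fixed and -0.04 with the muscle covariate, which gave it 0.01 in HS, and SLC2A9 in LW read -0.01 with array weights and -0.06 with muscle. With the red blood cell covariate HS minus TN was 0.08 for SLC2A4 (O9845), -0.14 for TXNIP, 0.04 for MLXIPL, -0.03 for SLC2A9 and 0.01 for SLC2A13. With 1 array left out HS minus TN ran from -0.12 to 0.04 for SLC2A3, from -0.06 to 0.02 for SLC2A10, from -0.04 to 0.2 for TXNIP and from -0.03 to 0.04 for SLC2A9. LW minus Creole ran from -0.02 to 0.09 for SLC2A10, from -0.08 to 0.02 for KHK, from -0.11 to 0.05 for TBC1D4 and from -0.05 to 0.05 for SLC2A9. F1 minus mid-parent ran from -0.04 to 0.07 for SLC2A12 and from -0.03 to 0.02 on O2906. Apart from the mean of probes, the cause was not tested.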
